A study of Mus musculus with 24 samples.

Results

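The Ikaros zinc finger family has 5 members in the mouse: Ikzf1 (Ikaros), Ikzf2 (Helios), Ikzf3 (Aiolos), Ikzf4 (Eos) and Ikzf5 (Pegasus). They were taken by gene symbol from a count table of 24046 genes, and all 5 were found. The family was chosen by the level of Ikzf2, which is nearly lost in VavCre Arid1b floxed libraries: it lay there at 2.55, 3.72 and 1.80 CPM (read counts scaled to a common library size) against 321, 376 and 152 CPM in their controls. Member values from that set are therefore a description, with no test. For the gene lists, counts past the threshold in it stand beside the share of all genes, and nothing is read from them.

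Polyadenylated RNA was sequenced from bone marrow of moribund mice that carried leukaemia driven by the MLL-AF9 fusion, in 4 sets of 3 control and 3 floxed libraries, 24 libraries in 8 groups. The marrow came from secondary recipients, mice that received transplanted leukaemia cells. Arid1b and Arid2, the genes flanked by loxP sites, encode subunits of SWI/SNF chromatin remodelling complexes.

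Controls of the VavCre Arid1b set were Arid1b +/+ with VavCre and the floxed cells Arid1b fl/fl with VavCre. The VavCre Arid2 set was the same with Arid2 +/+ and Arid2 fl/fl cells. The Vav promoter drives Cre throughout the blood system from its early development. MxCre is switched on by pIpC, an RNA that induces interferon, of which recipients got 12.5 µg per g in each of 3 injections that began on day 21. The labels of these sets conflict. Libraries with MxA2 in the title have Arid1b +/+ or Arid1b fl/fl as cell type, and those with MxA1b have Arid2 +/+ or Arid2 fl/fl. The sets are called MxA2 and MxA1b after their titles, and which gene was floxed in them cannot be told apart from the labels. Every group carries MLL-AF9 and a Cre, and pIpC treatment separates all MxCre libraries from all VavCre libraries. The labels do not give the age of the mice nor whether replicates are separate leukaemias, so p-values reflect only how far these samples spread, which may be technical.

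Ikaros family proteins are zinc finger transcription factors of blood cells. The fingers near the N-terminus bind DNA, and the pair at the C-terminus joins family members to each other as homodimers and heterodimers. Ikaros and its relatives bring the NuRD histone deacetylase complex to target genes. In human cells the drug lenalidomide leads the cereblon ubiquitin ligase to Ikaros and Aiolos through a DNA-binding finger. Ikaros is needed for lymphoid development and is lost or mutated in acute lymphoblastic leukaemia, Helios has been tied to self-renewal of myeloid leukaemia stem cells and to regulatory T cells, Aiolos acts mainly in B and T cells, Eos partners Foxp3 in regulatory T cells, and Pegasus is the most distant relative.

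The second zinc finger is shown because it lies among those that contact DNA, and because it shows how close the members are where reads could be shared. Each line runs 5′ to 3′ on the coding strand in GRCm38 (mm10), from the GENCODE M21 annotation, and the capitals mark the codons of the cysteines and histidines that hold the zinc ion. The Ikzf1 finger lies on the plus strand at chr11:11754024-11754086, that of Ikzf2 on the minus strand at chr1:69570581-69570643, that of Ikzf3 on the minus strand at chr11:98488940-98489002 and that of Ikzf4 on the minus strand at chr10:128640229-128640291. Each sits within 1 coding exon.
Ikzf1 finger 2: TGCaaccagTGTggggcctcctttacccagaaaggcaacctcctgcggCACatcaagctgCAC
Ikzf2 finger 2: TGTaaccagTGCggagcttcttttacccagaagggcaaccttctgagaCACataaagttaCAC
Ikzf3 finger 2: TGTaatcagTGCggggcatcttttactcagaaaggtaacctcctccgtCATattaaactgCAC
Ikzf4 finger 2: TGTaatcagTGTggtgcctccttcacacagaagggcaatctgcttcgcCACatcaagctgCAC
Over these 63 bases the 4 genes were 76.2% to 84.1% identical, the closest pair being Ikzf1 and Ikzf4.

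The first finger of the C-terminal pair is shown because it is the part through which family members join, and it sets Ikzf5 apart from Ikzf1 and Ikzf2. The Ikzf1 sequence lies at chr11:11769411-11769473 on the plus strand, and the others on the minus strand at chr1:69538870-69538932 for Ikzf2 and chr7:131391739-131391801 for Ikzf5.
Ikzf1 C-terminal finger: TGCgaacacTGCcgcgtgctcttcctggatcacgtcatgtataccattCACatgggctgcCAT
Ikzf2 C-terminal finger: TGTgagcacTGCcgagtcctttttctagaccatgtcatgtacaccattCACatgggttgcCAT
Ikzf5 C-terminal finger: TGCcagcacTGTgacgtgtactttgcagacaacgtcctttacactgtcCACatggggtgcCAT
Ikzf1 and Ikzf2 were 82.5% identical here, and Ikzf5 was 68.3% identical to each of them. The spacing of the cysteine and histidine codons is the same in all 3. Across the annotated transcripts, the longest run of bases shared exactly by any pair of members was 15 to 32 bases, 32 for Ikzf2 and Ikzf4 and 26 for Ikzf1 and Ikzf3. The read length is not given in the sources used here, so how many reads could match more than one member was not tested.

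The members lie at separate places in the genome: Ikzf1 at chr11:11685003-11772926, Ikzf2 at chr1:69531214-69687245, Ikzf3 at chr11:98464902-98546031, Ikzf4 at chr10:128630843-128645991 and Ikzf5 at chr7:131388652-131410521. Ikzf5 shares 4652 exonic bases with Pstk on the other strand. The libraries were made with a directional kit, but the strand setting of the counting is not given in the sources used here, so reads of Ikzf5 and Pstk cannot be told apart without it. Pstk, a kinase needed to make selenocysteine, was at 4.57 to 14.9 CPM.

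Total counts ran from 12069153 to 38315410 per library. Arid1b was at 55.7 to 442 CPM and Arid2 at 121 to 547 CPM over the 24 libraries, with reads in every floxed library. Which exons were to be removed is not stated, so these counts do not test the deletion. The myeloid factor Spi1 was at 245 to 659 CPM and the MLL-fusion target Meis1 at 32.8 to 157 CPM in all libraries, while the T cell receptor component Cd3e was at 0.0549 to 7.90 CPM and the B cell factor Pax5 at 0 to 0.970 CPM, with 0 counts in 9 libraries. RNA of the Y-linked gene Kdm5d was above 10 CPM in 10 libraries. Within the VavCre Arid1b set these were the controls alone and in the MxA2 set the floxed libraries alone, so sex of the cells and genotype cannot be told apart there. A group of 3 libraries stood apart from the rest. Control 3 of the VavCre Arid1b set had chromosome 12 genes raised by a median log2 difference of 0.57 over the other controls. Summed erythroid marker levels (7 genes, globins included) reached 515 CPM in MxA2 floxed 3 and 358 CPM in MxA1b floxed 2, against 1.02 to 45.0 CPM in the other 22.

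**Figure D1:**
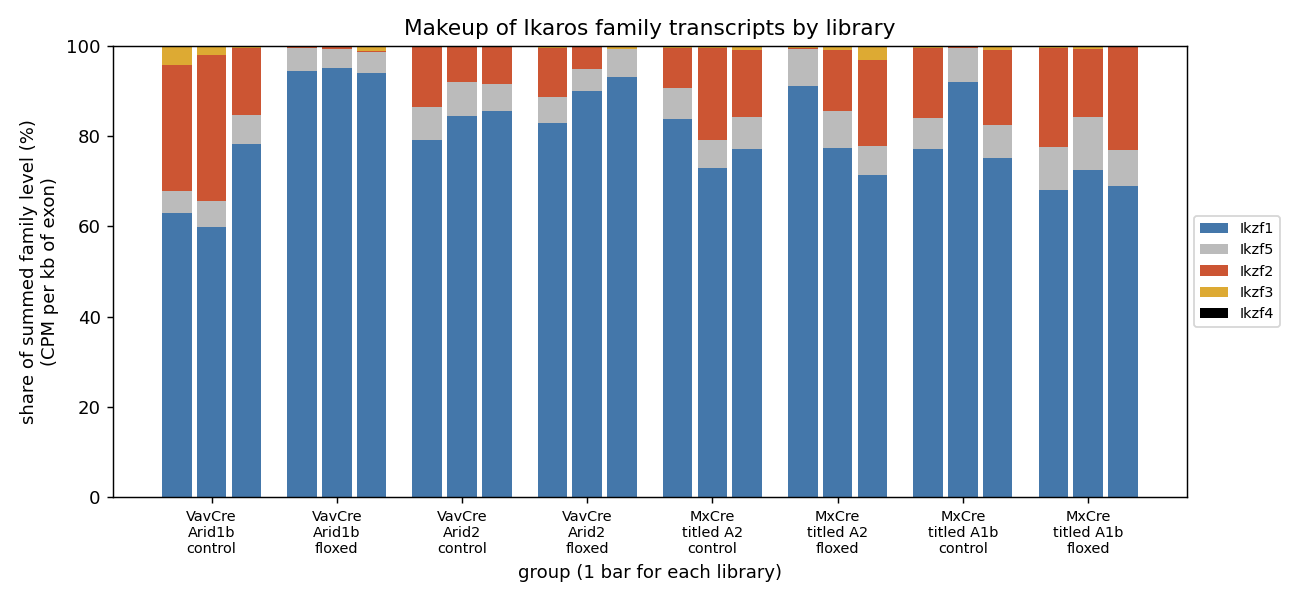
Share of each family member in the family's summed level per kilobase of exon (y axis, percent) in each of the 24 libraries (x axis, by group and replicate). Ikzf1 makes up 59.9% to 95.1% of every bar, and the Ikzf2 segment is all but missing in 6 libraries.

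Ikzf1 was the most abundant member in all 24 libraries once levels were divided by exon length. Its share of the family's summed CPM per kilobase of exon ran from 59.9% to 95.1% with a median of 78.7%. The median share was 13.4% for Ikzf2, with a range from 0.0478% to 32.4%. Ikzf5 held a median of 6.66% (4.31% to 11.7%), Ikzf3 0.436% (0.159% to 4.12%) and Ikzf4 at most 0.110%. In CPM per kilobase of exon the medians were 70.5 for Ikzf1, 10.6 for Ikzf2, 6.14 for Ikzf5, 0.371 for Ikzf3 and 0.0298 for Ikzf4. Since the samples are bulk marrow, fewer cells expressing a gene and less RNA per cell cannot be told apart.

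Ikzf2, the Helios gene, was either well expressed or close to absent, and this split ran within groups as well as between them. Controls of the VavCre Arid1b set averaged 283 ± 117 CPM (SD, n = 3) and floxed libraries 2.69 ± 0.967 CPM (SD, n = 3). The fitted log2 fold change was -6.70 (SE 1.70), a 104-fold lower level. The groups do not overlap, and this is the contrast for which the family was chosen. Of all 14099 genes tested, 16.1% had every floxed library below every control in this set.

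In the VavCre Arid2 set, Ikzf2 was at 140, 76.5 and 88.1 CPM in the controls and at 133, 73.9 and 0.549 CPM in the floxed libraries. Floxed 3 was the lowest of all 24 libraries, while floxed 1 and 2 lay near or within the controls. The log2 fold change was -0.55 (SE 1.31) with a 95% interval from -3.30 to 2.19, and the adjusted p of edgeR's quasi-likelihood test was 0.854. Without floxed 3 it was 0.03 on the log2 scale.

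In the MxA2 set, Ikzf2 was at 91.5, 184 and 139 CPM in the controls and at 1.66, 113 and 225 CPM in the floxed libraries. The floxed group held both a near-absent and the highest value of the set, and the groups overlap. Floxed over control, the log2 fold change was -0.29 (SE 1.31; 95% interval -3.03 to 2.45; edgeR adjusted p 0.967). Without floxed 1 it was 0.27, and without floxed 3, one of the libraries that stood apart, -1.26.

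In the MxA1b set the low library was a control. Ikzf2 was at 161, 1.11 and 179 CPM in the controls and at 181, 103 and 216 CPM in the floxed libraries. Floxed 1 and 3 lay above the pair of high controls and floxed 2 below it, and the groups overlap because of control 2. The log2 fold change was 0.55 (SE 1.31; 95% interval -2.20 to 3.30; edgeR adjusted p 0.859), and without control 2 it was -0.03.

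**Figure D2:**
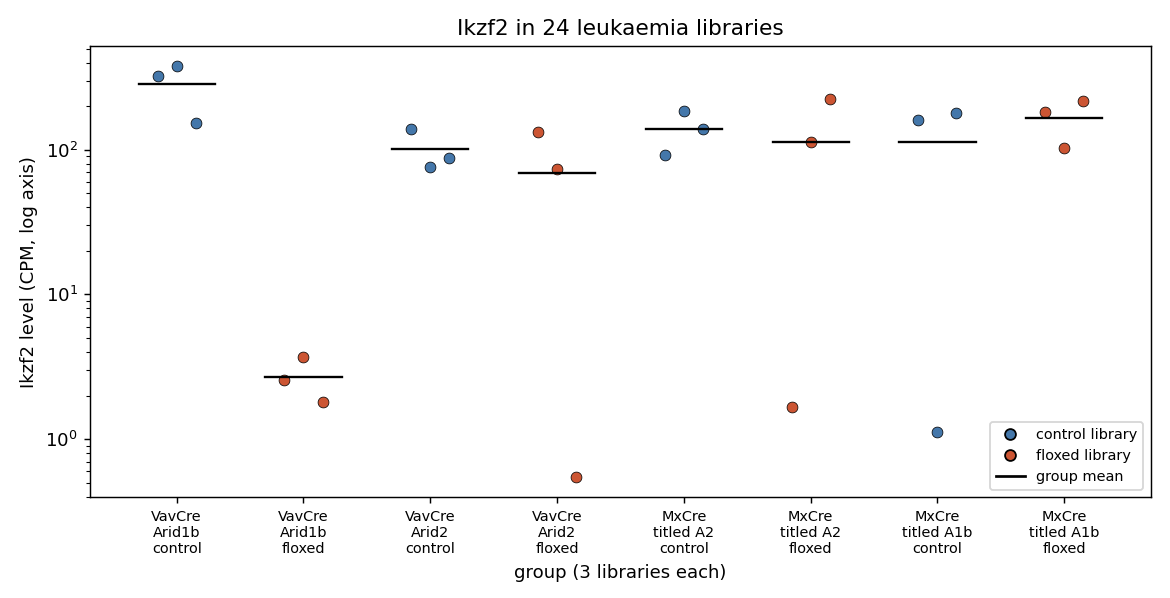
Ikzf2 level in CPM on a log axis (y) for each library, by group (x); each point is 1 library. In all, 6 points lie at or below 3.72 CPM and the other 18 at or above 73.9 CPM, and the low points fall in 4 groups, 1 of them a control group.

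Ordered by level, 6 libraries lay between 0.549 and 3.72 CPM and the other 18 between 73.9 and 376 CPM, with no library in the 19.9-fold gap. The low values rest on 18 to 84 reads each. For the lowest, floxed 3 of the VavCre Arid2 set, the exact Poisson 95% interval was 0.326 to 0.868 CPM, and for the highest of the 6, floxed 3 of the VavCre Arid1b set, 2.97 to 4.61 CPM. These intervals cover counting error only. Reads were present in all 6, and their intervals end far below 73.9 CPM. The low libraries were 5 of 12 floxed and 1 of 12 control libraries, and 1 of the 10 Y-positive and 5 of the 14 Y-negative libraries. These counts include the 3 floxed libraries by which the family was chosen. Outside the VavCre Arid1b set the low libraries were 2 of 9 floxed and 1 of 9 control libraries, and 1 of 7 Y-positive and 2 of 11 Y-negative libraries. None of the 3 libraries that stood apart was among them. Genes on chromosome 12 lay higher in 1 of the 6, control 2 of the MxA1b set, with a median log2 difference of 0.26 from its group's other controls. Its part in the Ikzf2 level was not tested.

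Few well-expressed genes ranged this widely within groups. Of 5085 tested genes with a mean of at least 50 CPM, 7 (0.138%) had at least a 50-fold range inside 3 or more groups. They included Ikzf2, Gata2 and Tcf4 (both transcription factors of blood cells), the mast cell protease gene Cpa3, Tcf24 and the collagen gene Col19a1; this cut and these names were chosen after their values were seen. The biological coefficient of variation within groups was 1.03 for Ikzf2, higher than for 96.5% of genes. It was 0.680 for Ikzf3 (higher than 87.1%), 0.145 for Ikzf1 (7.47%) and 0.128 for Ikzf5 (2.48%).

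The nearest tested neighbours of Ikzf2 on chromosome 1 start 1496 to 2700 kb away. Over all 24 libraries Lancl1, which encodes a glutathione-binding protein, ran from 25.2 to 43.0 CPM and Bard1, the partner of Brca1, from 23.2 to 45.3 CPM. Acadl, a fatty acid oxidation enzyme gene, ran from 65.2 to 125 CPM, and Atic, a purine synthesis enzyme gene, from 130 to 303 CPM. No neighbour came near the 684-fold range of Ikzf2. Fitted log2 fold changes of these 4 in the VavCre Arid1b set lay between -0.13 and 0.02, and none was called in the 3 sets tested.

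The genes whose level followed Ikzf2 most closely over the 24 libraries were Rnf217, a ubiquitin ligase gene (Pearson r 0.76 of log2 CPM), Rcn1, a calcium-binding protein of the endoplasmic reticulum (0.73), and Il22ra2, a decoy receptor for interleukin 22 (0.72). They were picked out of all tested genes for this likeness, over libraries that share their groups, so r is a description. Their ranges were far narrower than that of Ikzf2. Rnf217 ran from 8.08 to 81.2 CPM, Rcn1 from 1.41 to 25.5 CPM and Il22ra2 from 1.06 to 18.3 CPM, against a 684-fold range for Ikzf2. Between members, r was -0.53 for Ikzf1 with Ikzf2 and between -0.33 and 0.19 for the other 5 pairs.

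Ikzf1, the Ikaros gene, moved far less than Ikzf2 but in opposite directions in different sets. In the VavCre Arid1b set it was at 360, 346 and 399 CPM in the controls and at 598, 678 and 577 CPM in the floxed libraries. All floxed libraries lay above all controls. The means were 369 ± 27.4 and 618 ± 53.6 CPM (SD, n = 3 each) and the log2 fold change was 0.74 (SE 0.14), given as a description; 16.3% of tested genes had every floxed library above every control in this set.

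In the VavCre Arid2 set Ikzf1 was at 411, 411 and 460 CPM in the controls and at 505, 678 and 532 CPM in the floxed libraries. Here too the floxed libraries all lay above the controls, as 17.9% of tested genes did. The means were 428 ± 28.4 and 572 ± 92.8 CPM (SD, n = 3 each). Floxed over control, the log2 fold change was 0.42 (SE 0.14; 95% interval 0.12 to 0.72), with an edgeR p of 0.00896 before adjustment and 0.126 after it, which misses the threshold of 0.05.

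In the MxA2 set Ikzf1 was at 433, 327 and 359 CPM in the controls and at 359, 324 and 418 CPM in the floxed libraries, and the groups overlap. The log2 fold change was -0.02 (SE 0.14; 95% interval -0.32 to 0.28; edgeR adjusted p 0.974).

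In the MxA1b set Ikzf1 was at 401, 447 and 403 CPM in the controls and at 282, 244 and 323 CPM in the floxed libraries. All floxed libraries lay below all controls, as 7.55% of tested genes did. The means were 417 ± 25.7 and 283 ± 39.7 CPM (SD, n = 3 each), and the log2 fold change was -0.56 (SE 0.14; 95% interval -0.86 to -0.26). The p was 0.00101 before and 0.107 after adjustment by edgeR's quasi-likelihood test, and DESeq2 gave an adjusted p of 0.0166. The lowest library, floxed 2, is the one with 358 CPM of summed erythroid markers; without it the log2 fold change was -0.47 (edgeR adjusted p 0.285), and without floxed 1 it was -0.56 with an edgeR adjusted p of 0.0383. The part of the erythroid RNA in this result was not tested beyond that.

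The response of Ikzf1 differed between the VavCre Arid2 set and the MxA1b set. The difference of the log2 fold changes was 0.98 (SE 0.20; 95% interval 0.55 to 1.40), a 1.97-fold ratio, with an edgeR adjusted p of 0.0276. Over 19 alternative settings the difference ran from 0.84 to 1.09 and the adjusted p from 0.000615 to 0.0951, and the call was lost in 11 of them. Among these are the fits without control 1, 2 or 3 or floxed 1 or 2 of the VavCre Arid2 set and without control 1 or 3 of the MxA1b set. Cre, pIpC and the labelled gene all differ between these sets and cannot be told apart. The difference was 0.44 between the VavCre Arid2 set and the MxA2 set (edgeR adjusted p 0.253) and 0.54 between the MxCre sets (0.184).

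**Figure D3:**
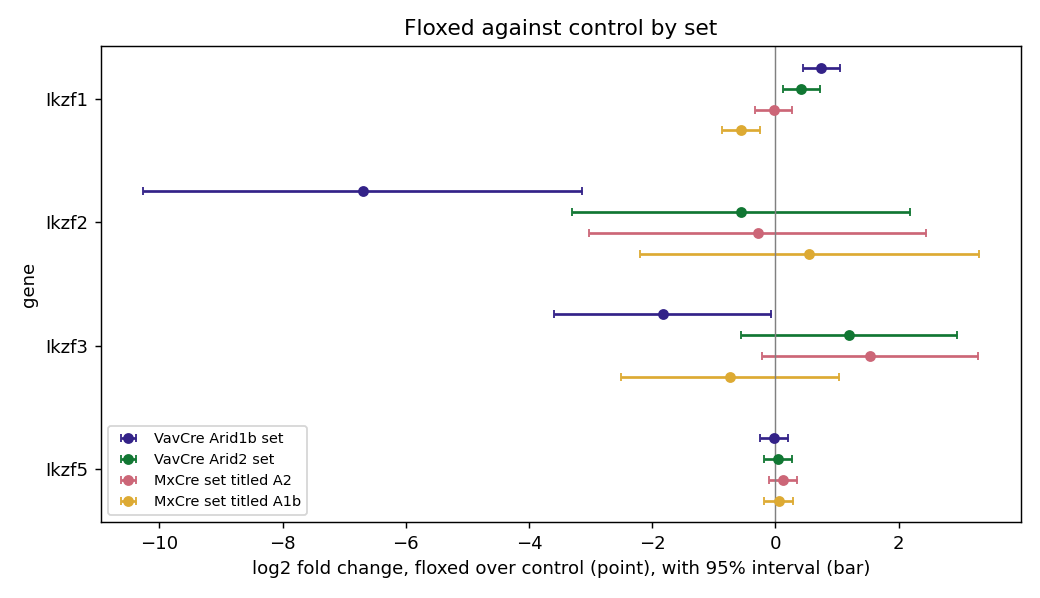
Log2 fold change of floxed over control (x axis) for Ikzf1, Ikzf2, Ikzf3 and Ikzf5 (y axis), with the 4 sets as colours. Bars give the 95% interval of the edgeR fit. Ikzf1 lies to the right of 0 in the VavCre sets and to the left of 0 in the MxA1b set. Ikzf2 intervals span several log2 units, and every Ikzf5 interval covers 0.

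Among controls, no difference in Ikzf1 passed the test. Its means were 428, 373 and 417 CPM in the VavCre Arid2 set, the MxA2 set and the MxA1b set. The log2 differences between these lay between -0.16 and 0.20, with 95% intervals reaching from -0.46 to 0.50. Ranked by group mean, VavCre Arid1b floxed libraries came first and MxA1b floxed libraries last. Neighbours in that order overlapped, apart from VavCre Arid2 floxed over VavCre Arid2 control and MxA2 floxed over MxA1b floxed. For Ikzf2, Ikzf3, Ikzf4 and Ikzf5 every pair of neighbours in the order of group means overlapped.

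The genes most like Ikzf1 over the 24 libraries were Tpcn1, an endolysosomal cation channel gene (Pearson r 0.87 of log2 CPM, 95.6 to 324 CPM), Slc44a1, a choline transporter gene (0.85, 1.94 to 66.1 CPM) and Atf6, a sensor of the unfolded protein response (0.84, 71.9 to 291 CPM). On chromosome 11 its nearest tested neighbours on either side were Zpbp, at 1.62 to 5.15 CPM, and Fignl1, a DNA repair ATPase gene, at 48.6 to 109 CPM. Neither was called in the 3 sets tested, and nor were the next ones out, Abca13 and Grb10.

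Ikzf3, the Aiolos gene, was low in most libraries and high in a few. Within the VavCre Arid1b set it was at 35.7, 17.3 and 2.84 CPM in controls and at 2.08, 3.45 and 10.2 CPM in floxed libraries, and these groups overlap. The log2 fold change there was -1.83 (SE 0.84), as a description, and it ranged from -0.94 without control 1, the highest of all libraries, through -2.75 without floxed 4 to -3.18 with the replicate block. That control had 27.8 CPM of summed T cell markers (12 genes) and 4.58 CPM of summed NK cell markers (7 genes), near the values of the other controls of its group, at 23.3 and 31.4 and at 8.97 and 4.92 CPM. Summed megakaryocyte markers (6 genes) were at 63.8 CPM in control 1 and at 108 and 8.12 CPM in controls 2 and 3.

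In the MxA2 set Ikzf3 was at 4.0, 2.44 and 5.44 CPM in the controls and at 2.56, 5.12 and 27.0 CPM in the floxed libraries. Only floxed 3 lay outside the range of the controls by more than their spread. Floxed over control, the log2 fold change was 1.54 (SE 0.84; 95% interval -0.22 to 3.29; edgeR adjusted p 0.545), and without floxed 3 it was -0.04. Floxed 3 also held the highest sums of T cell markers (126 CPM, against 10.7 to 105 in the other 23) and NK cell markers (53.5 CPM, against 3.40 to 19.9), besides its erythroid sum of 515 CPM. All 12 T cell markers and all 7 NK cell markers had reads in at least 1 library of every group. Summed megakaryocyte markers were at 67.6 CPM in floxed 3. Outside it and controls 1 and 2 of the VavCre Arid1b set, they reached at most 29.2 CPM. Of that list Itga2b, named after its values were seen, ran from 0.886 to 104 CPM, and no other member passed 10.5 CPM. Pearson r with Ikzf3 had a median of 0.31 over its 5 tested genes, from -0.13 for Gp1ba to 0.73 for Itga2b. The part of the T cell, NK cell, erythroid and megakaryocyte markers in the Ikzf3 level was not tested.

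In the VavCre Arid2 set Ikzf3 was at 1.38, 1.31 and 1.83 CPM in the controls and at 3.26, 1.81 and 5.37 CPM in the floxed libraries. The log2 fold change was 1.20 (SE 0.84; 95% interval -0.55 to 2.95; edgeR adjusted p 0.451). In the MxA1b set the controls were at 3.49, 2.06 and 6.55 CPM and the floxed libraries at 3.24, 2.43 and 1.54 CPM, a log2 fold change of -0.74 (SE 0.84; 95% interval -2.51 to 1.03; edgeR adjusted p 0.683). The groups overlap in both sets. The genes most like Ikzf3 were Tnik, a kinase of the Wnt pathway (Pearson r 0.84 over 24 libraries, 0.223 to 17 CPM), Adcyap1r1 (0.80) and Fam71b (0.77), the last pair never above 2.08 CPM. On chromosome 11, none of its neighbours Grb7, Mien1, Zpbp2 and Ormdl3 was called in the sets tested.

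**Figure D4:**
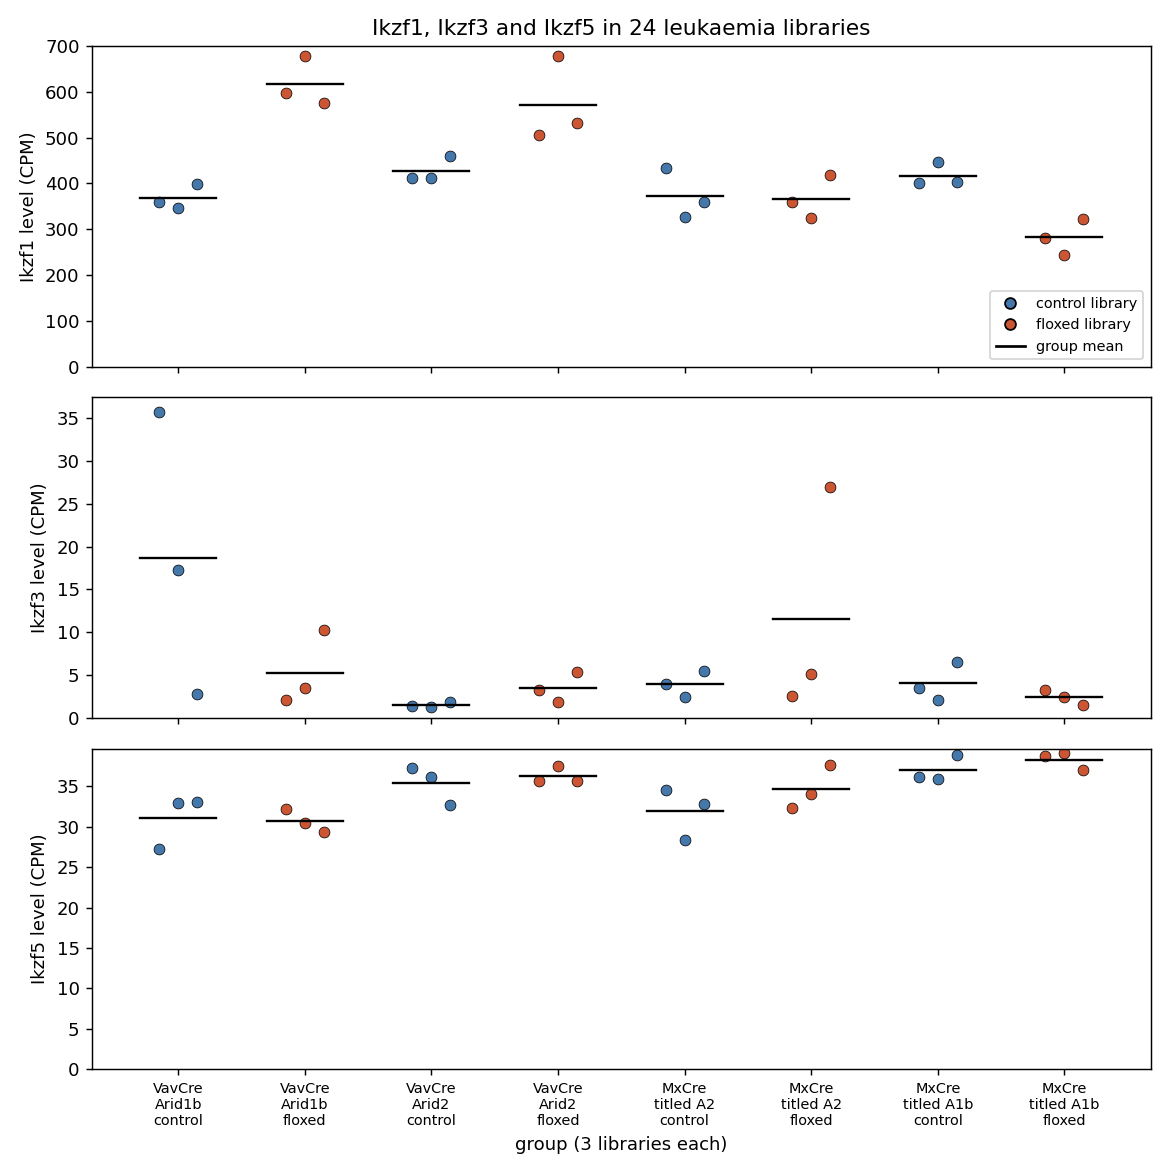
Level in CPM on a linear axis (y) of Ikzf1, Ikzf3 and Ikzf5, 1 panel each, for every library by group (x). Each point is 1 library. Ikzf1 floxed points lie clear of the controls in 3 of the 4 sets, Ikzf3 points spread from 1.31 to 35.7 CPM, and Ikzf5 points stay between 27.2 and 39.1 CPM.

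Ikzf4, the Eos gene, had 87 reads over all 24 libraries, 0 to 13 in each. It reached 0.479 CPM at most and had 0 reads in 4 libraries, where the limit of 3 counts corresponds to 0.0916 to 0.257 CPM. It did not pass the filter on low counts and was not tested. Foxp3, which Eos partners in regulatory T cells, was listed at 22.9 to 52.6 CPM. Of the other listed markers of those cells, Tnfrsf18 ran from 1.54 to 21.3 CPM. Il2ra, Ctla4, Tigit and Lrrc32 stayed at or below 1.87, 1.39, 1.73 and 0.762 CPM.

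Ikzf5, the Pegasus gene, was the steadiest member. It ran from 27.2 to 39.1 CPM over all 24 libraries, a 1.44-fold range around a median of 35.1 CPM, with group means between 30.7 and 38.3 CPM. In the VavCre Arid2 set it was at 35.3 ± 2.40 CPM in the controls and 36.2 ± 1.07 CPM in the floxed libraries (SD, n = 3 each). The 3 tested log2 fold changes were 0.04, 0.12 and 0.05 in the VavCre Arid2 set, the MxA2 set and the MxA1b set, with edgeR adjusted p of 0.886, 0.765 and 0.845. Their 95% intervals stayed between -0.19 and 0.35, so changes larger than 0.35 on the log2 scale lie outside them. For the VavCre Arid1b set the value was -0.02, as a description. The gene most like it was Cggbp1, which binds CGG repeats (Pearson r 0.71, 169 to 227 CPM), followed by Eid1 (0.64) and Zfp429 (0.62). Of its neighbours on chromosome 7, Pstk, Acadsb, Bub3 and 2310057M21Rik, none was called in the sets tested.

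Counted over the family, 0 of the 4 tested members were called by edgeR in the VavCre Arid2 set, where 1.31% of all tested genes were, 0 of 4 in the MxA2 set (0.0284%) and 0 of 4 in the MxA1b set (0.00709%). With a p under 0.05 before adjustment the counts were 1, 0 and 1 of 4, against 19.5%, 10.6% and 17.4% of all genes. DESeq2 called 0, 0 and 1 of 4, against 7.77%, 1.39% and 3.39%. Of the members, 2 of 5 did not overlap between the groups of the VavCre Arid1b set (32.4% of tested genes, either direction), 1 of 5 in the VavCre Arid2 set (36.1%), 0 of 5 in the MxA2 set (15%) and 1 of 5 in the MxA1b set (14.1%). These shares lie near the background or rest on 1 gene, and they are no result about the family as such.

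For the differences between sets, edgeR called 1 of 4 members between the VavCre Arid2 set and the MxA1b set (1.5% of all genes), which is Ikzf1, 0 of 4 between the VavCre Arid2 set and the MxA2 set (0.489%), and 0 of 4 between the MxCre sets (0.192%). In the same order DESeq2 called 1 (8.1% of all genes), 0 (5.06%) and 0 (4.28%) of 4. Before adjustment 1 of 4 members had a p under 0.05 in each, as had 22.6%, 18.6% and 17.6% of all genes. Between controls edgeR called 0 of 4 members for all 3 pairs, VavCre Arid2 with MxA2, VavCre Arid2 with MxA1b and MxA2 with MxA1b, where 0.0213%, 0.00709% and 0% of all genes were called; DESeq2 called 0 as well (1.37%, 0.887% and 0.199% of all genes). Before adjustment 0 of 4 had a p under 0.05, as had 11.6%, 11.1% and 5.79% of all genes.

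In the MxA2 and MxA1b sets 0 of 17 NuRD and corepressor genes, through which the family acts, were called (0.0284% and 0.00709% of all genes). In the VavCre Arid2 set 1 of the 17 fell (1.06% of all genes did) and 0 rose. The one that fell was Mbd2, which encodes the NuRD subunit that binds methylated DNA. It was at 194 to 300 CPM in the controls (242 ± 53.7, SD, n = 3) and at 122 to 145 CPM in the floxed libraries (134 ± 11.8). Floxed over control, the log2 fold change was -0.85 (SE 0.15; edgeR adjusted p 0.0128). The groups did not overlap, as for 36.1% of tested genes in this set in either direction. The call was lost in 3 of 13 alternatives, the fits without control 2 (log2 fold change -0.66), floxed 1 or floxed 2 of that set. The list's median log2 fold change was -0.06 there, beside 0.00 over all genes. In the VavCre Arid1b set, described only, 0 of 17 passed the threshold (6.57% of all genes did), and the median was -0.14 beside -0.06 over all genes.

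The 5 genes listed for the cereblon ubiquitin ligase held 0 called members in each of the 3 sets tested. Of all genes, 1.31%, 0.0284% and 0.00709% were called in the VavCre Arid2, MxA2 and MxA1b sets. The summed level of the 5 genes stayed between 673 and 830 CPM over all groups. Crbn, the substrate receptor, was at 62.1 to 108 CPM.

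Among 14 tested early lymphoid genes, the programme that Ikaros is known to open, 0 rose and 1 fell in the VavCre Arid2 set, where 1.06% of all genes fell and 1.31% were called either way, and 0 were called in the MxCre sets (0.0284% and 0.00709% of all genes in MxA2 and MxA1b). The member that fell was Cd79b, a B cell receptor component, from 25 ± 3.68 to 2.82 ± 2.10 CPM (SD, n = 3 each). Its log2 fold change was -3.14 (SE 0.75; edgeR adjusted p 0.0478), a call lost in 9 of 13 alternatives, where the adjusted p ran from 0.000324 to 0.202. It also stands in the list of B cell markers, whose 8 members summed to 26.2 to 36.5 CPM in these controls and 7.63 to 9.12 CPM in the floxed libraries. Cd79b alone made up 20.7 to 27.5 CPM and 0.885 to 5.05 CPM of these sums. The defining B cell gene Pax5 never passed 0.970 CPM. The median of the early lymphoid list was -1.52 in the VavCre Arid2 set, 1.34 in the MxA2 set and -1.15 in the MxA1b set, beside 0.00, 0.02 and 0.01 over all genes. Its summed level went the other way in the VavCre Arid2 set, from 193 to 281 CPM in the controls to 335 to 1330 CPM in the floxed libraries, with no overlap. Over all 24 libraries Flt3 reached 1066 CPM and Notch1 245 CPM. No other listed member passed 64.7 CPM, so the highest sums are mostly theirs. In the VavCre Arid2 set 4 of the 14 tested members had positive and 10 negative log2 fold changes. Of all tested genes, 36.1% did not overlap in that set, in either direction. Named after their values were seen, the cytokine receptor genes Flt3 (log2 fold change 4.80, SE 1.52, edgeR adjusted p 0.105) and Il7r (4, SE 1.13, edgeR adjusted p 0.0803) were higher there without passing the threshold. Each passed it in 3 of 13 alternatives.

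The leukaemia self-renewal genes, to which Helios has been tied, included 9 tested members, among them Hoxa9, Meis1 and Myb. None was called in the 3 sets tested, where 1.31%, 0.0284% and 0.00709% of all genes were, in the order VavCre Arid2, MxA2 and MxA1b. In the same order the list's medians were -0.06, -0.01 and -0.17 on the log2 scale. The VavCre Arid2 median, over 4 positive and 5 negative log2 fold changes, does not show the widest changes in either direction. Cd34 (log2 fold change 4.09, SE 1.69, edgeR adjusted p 0.193) and Mef2c (2.21, SE 1.15, edgeR adjusted p 0.296) were higher without passing the threshold. Hoxa9 and Hoxa10, homeobox genes kept on by MLL fusions, were lower and just missed it. These genes are singled out here after their values were seen. Hoxa9 was at 280 to 365 CPM in the VavCre Arid2 controls and at 20.1 to 91.6 CPM in the floxed libraries (log2 fold change -2.36, SE 0.59, edgeR adjusted p 0.0534). These groups did not overlap, as for 36.1% of tested genes in that set in either direction. For Hoxa10 the log2 fold change was -3.58 (SE 0.88, edgeR adjusted p 0.0507). Each passed the threshold in 2 of 13 alternatives, and over all 13 the adjusted p ran from 0.0012 to 0.198 for Hoxa9 and from 0.000324 to 0.147 for Hoxa10. As a description, 1 of 9 passed the threshold in the VavCre Arid1b set, where 6.57% of all genes did: the stem cell factor receptor gene Kit, with a log2 fold change of -1.93 (SE 0.49). Over 24 libraries the median Pearson r between Ikzf2 and these 9 genes was -0.07, and r ran from -0.25 for Hoxa7 to 0.41 for Myb.

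In the VavCre Arid2, MxA2 and MxA1b sets 1.31%, 0.0284% and 0.00709% of all genes were called. Of 11 genes of C/EBP factors and myeloid differentiation, 0 were called in these sets. Again as a description, 2 passed the threshold upwards in the VavCre Arid1b set (3.52% of all genes did), Cebpa (log2 fold change 1.01) and Klf4 (4.18), both myeloid transcription factors, and 2 downwards (3.05% of all genes), Cebpe (-1.89) and Gfi1 (-2.27), factors of granulocyte formation. The median r of this list with Ikzf2 was -0.14 over 24 libraries, from -0.42 for Klf4 to 0.28 for Csf3r.

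Lists of other cell types held 0 called members in the MxCre sets, and in the VavCre Arid2 set only Cd79b. Of all genes, 0.0284% were called in the MxA2 set, 0.00709% in the MxA1b set and 1.31% in the VavCre Arid2 set. In the VavCre Arid1b set, where Ikzf2 was low in all floxed libraries, summed T cell markers were at 23.3 to 31.4 CPM in the controls and at 71.5 to 105 CPM in the floxed libraries, although 8 of the 12 had negative log2 fold changes. Of that sum, Cd28, a costimulatory receptor gene, made up 0.754 to 5.83 CPM in the controls and 52.9 to 94.6 CPM in the floxed libraries (log2 fold change 5). Passing the threshold upwards were also the B cell marker Cd22 (3.79), the plasma cell markers Irf4 (4.95) and Sdc1 (5.12) and the plasmacytoid dendritic cell markers Spib (3.33) and Siglech (4.19), and downwards the stem cell marker Slamf1 (-4.58). The other tested stem cell markers, Hlf (2.28) and Procr (0.36), had positive log2 fold changes. Of all genes, 3.52% passed the threshold upwards in this set and 3.05% downwards. The part of these markers in the Ikzf2 level was not tested. Over 24 libraries r with Ikzf2 had a median of 0.21 over 12 T cell markers and 0.02 over 5 tested regulatory T cell markers.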

How the data were processed

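The authors deposited whole-number read counts per gene symbol, 1 column per library; 0 columns were left unused. Reads were aligned with STAR to mm10, per the submitters' processing notes. A read counter, annotation or strand setting is not given in the sources used here. Members and gene lists were chosen with earlier results of these data known, so no list count is independent evidence.

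Counts were filtered with filterByExpr over the 8 groups (minimum count 10, total 15), which kept 14099 of 24046 genes; 2194 had no read. The edgeR 4.0.16 quasi-likelihood fit (robust, R 4.3.3) used TMM scaling, 1 mean per group and 16 residual degrees of freedom. Calls need a p under 0.05 after Benjamini-Hochberg adjustment over all genes of a contrast. All adjusted p-values are from this test unless DESeq2 (version 1.42.0) is named. CPM use the same scaling, and correlations use log2 CPM with a prior count of 2. The procedure was tested on simulated data.

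The genes named are every member, called members of each list (up to 3 per set, smallest p first), markers at 0 counts, the 3 genes most correlated with each member, and the nearest 2 tested genes on either side of it. Lists also covered plasma cell, stem cell, megakaryocyte and erythroid markers. Jchain and Ly6g were not found by symbol and were not analysed here. Exon lengths, positions and sequences are from GENCODE M21 on GRCm38, the build also called mm10. Alternatives were DESeq2, DESeq2 size factors in edgeR, no filter, a replicate block, a term for Y-positive libraries, the libraries of the sets compared alone, leaving out the 3 libraries that stood apart, and leaving out each library in turn.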

Additional observations from a re-analysis of the deposited data

Results flagged for a closer look

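The floxed over control change of Ikzf1 differed between the VavCre Arid2 set and the MxA1b set by 0.98 on the log2 scale, which passed the test of the difference itself (edgeR adjusted p 0.0276). The call was lost in 11 of 19 alternative settings. Ikzf1 was higher in 3 of 3 floxed libraries of the first set than in every control of that set, as 17.9% of tested genes were. In the second set it was lower in 3 of 3 floxed libraries than in every control, as 7.55% of tested genes were. The change of Ikzf1 in the VavCre Arid1b set exceeded that in the MxA1b set by 1.304 on the log2 scale. Every floxed library lay above all controls in the VavCre Arid1b set and below all controls in the MxA1b set. Of all tested genes, 16.3% lay above all controls in the VavCre Arid1b set and 7.55% below all controls in the MxA1b set. The share that did both was not counted. This second difference was not tested, because the VavCre Arid1b set served to choose the family.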

How the results depend on the processing

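With 3 libraries a group, 1 library often set the sign of a value that missed the threshold. The cause of each change below was not tested. The number of genes called over the whole table moved by over 1.5 times in every set (for the VavCre Arid2 set from 185 to between 15 and 1144, and for the MxA1b set from 1 to between 0 and 1535), so adjusted p-values near the threshold are fragile. Whether replicate numbers shared between floxed and control groups pair the libraries is not known. The correlation of same-numbered deviations was -0.22 to 0.26 over 11 pairs, 2 of them over 0.1. Of 18 libraries, 4 correlated best with their own number. With 3 libraries a group, these values cannot settle it. With the replicate block the Ikzf1 difference between the VavCre Arid2 and MxA1b sets was 0.99 and missed the threshold, Ikzf3 between MxA2 and MxA1b controls turned to 0.029, and VavCre Arid2 calls went from 185 to 79. That Ikzf1 difference also missed it without the filter (1.01), with the term for Y-positive libraries (0.92) and with the libraries of the sets compared alone (1.00), and was 0.84 to 1.09 with each library left out. DESeq2 called Ikzf1 in the MxA1b set at -0.56, and leaving out libraries gave -0.67 to -0.47. With the Y term, Ikzf2 in the VavCre Arid1b set was -5.29, its difference between VavCre Arid2 and MxA2 0.79, its difference between VavCre Arid2 and MxA1b controls 1.24, Ikzf3 between MxA2 and MxA1b controls 0.22, and Ikzf5 between the MxA2 and MxA1b sets -0.003. Without the 3 libraries that stood apart, Ikzf3 in the MxA2 set was -0.036, and between VavCre Arid2 and MxA2 Ikzf2 was 0.71 and Ikzf3 1.25. The Ikzf5 difference between VavCre Arid2 and MxA1b was 0.0013 in that fit, 0.015 without the filter and 0.0083 with those sets alone.

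Leaving out each library in turn gave these further ranges over 0. Ikzf1 ran from -0.12 to 0.10 in the MxA2 set and from -0.020 to 0.087 between VavCre Arid2 and MxA1b controls. Ikzf2 ran from -1.44 to 0.031 in the VavCre Arid2 set, -1.26 to 0.27 in MxA2, -0.027 to 1.04 in MxA1b, -1.16 to 0.72 for VavCre Arid2 minus MxA2, -0.75 to 0.32 for VavCre Arid2 minus MxA1b controls and -0.30 to 0.77 for MxA2 minus MxA1b controls. Ikzf3 ran from -0.038 to 1.99 in MxA2, -0.79 to 1.26 for VavCre Arid2 minus MxA2 and -0.35 to 0.51 for MxA2 minus MxA1b controls. Ikzf5 ran from -0.014 to 0.079 in VavCre Arid2, -0.14 to 0.0013 for VavCre Arid2 minus MxA2, -0.064 to 0.030 for VavCre Arid2 minus MxA1b and -0.013 to 0.13 for MxA2 minus MxA1b.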
